A study of Mus musculus with 18 samples.

Results

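The cytosolic ribosomal protein genes, which encode the protein parts of the large and small subunits of the ribosome, were examined in granule neuron progenitors (GNPs) and medulloblastomas (MB) of mice lacking Norrin, heterozygous for the hedgehog receptor Ptch1, or both. Members were taken by the form of their symbol (Rpl or Rps followed by a number, together with Rplp0, Rplp1, Rplp2 and Rpsa), and each gene was represented by its probe with the highest mean over all arrays. This gave 62 genes of 19057 with a symbol, or 92 probes of 45281. Of the 62 genes, 56 were core ribosomal proteins, 33 of the large and 23 of the small subunit, and 6 were paralogues (Rpl22l1, Rpl39l, Rpl3l, Rpl7l1, Rps27l and Rps4l), which are described apart. RefSeq annotates 61 of the 62 as protein coding and 1, Rps4l, as a transcribed pseudogene (GRCm38.p6).

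Illumina MouseWG-6 v2 arrays, 18 in all, gave the expression values. One array held an NdpKO;Ptch+/- MB and 1 a Ptch+/- MB, so the tumours had no replicates. The other 16 held GNPs of NdpKO;Ptch+/-, Ptch+/-, NdpKO and wild-type (WT) mice, with 4 arrays per genotype. Each GNP array is a different animal, as the study states. GNPs were purified at postnatal day 6 from the cerebellum by density gradient and plating. The Ptch+/- mice carry 1 disrupted Ptch1 allele in every cell. In NdpKO mice a lacZ cassette disrupts the X-linked Ndp gene, also in every cell, and the compound mutants were Ndp-/y;Ptch+/- males. The labels give a C57Bl/6 background for the WT and Ptch+/- arrays, a mixed one for NdpKO, and for NdpKO;Ptch+/- none except on replicate 2. Both tumours carry the label of postnatal day 6, although the series describes their donors as symptomatic mice. The title of NdpKO;Ptch+/- replicate 2 gives the compound genotype, whereas its source and genotype labels give NdpKO. It was grouped by its title.

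The ribosome reads mRNA with its small subunit and joins amino acids with its large subunit. Most of its proteins are needed in equal numbers. In mammals the mRNAs of ribosomal proteins share a run of pyrimidines at the 5′ end, the TOP motif. Through it the mTOR kinase pathway sets their translation together. Cells that grow and divide quickly, as GNPs do under Sonic hedgehog, depend on a high supply of ribosomes. Several of these proteins also bind Mdm2 when subunit assembly fails.

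The starts of 5 genes on which the results below turn are shown to place the TOP motif. Each line gives 15 bases before and 15 bases from the annotated start in RefSeq (GRCm38.p6), on the strand of the gene. Capitals mark the nearest run of a C followed by at least 4 C or T, and a line without capitals holds no such run.
Rps6 (chr4:86857353-86857382, minus strand): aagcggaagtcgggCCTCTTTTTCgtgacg
Rps10 (chr17:27635230-27635259, minus strand): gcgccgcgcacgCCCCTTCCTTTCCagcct
Rps15a (chr7:118116133-118116162, minus strand): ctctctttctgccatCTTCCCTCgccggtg
Rpl23 (chr11:97782425-97782454, minus strand): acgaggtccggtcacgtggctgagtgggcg
Rps4x (chrX:102189377-102189406, minus strand): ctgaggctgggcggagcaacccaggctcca
Of the 62 genes, 51 were matched in the promoter table, with 61 starts. A C followed by at least 4 C or T stood exactly at the annotated start in 14.8% of these, against 2.51% of all 32851 starts in the table, and began within 5 bases of it in 42.6%, against 18.3%. In the 300 bases around the start, on either strand, CCGGAAG was present in 39.3% of the member starts and 8.86% of all, GCCATNTT in 18% and 6.05%, and CACGTG in 13.1% and 7.15%. Rpl23 holds CACGTG, in the stretch printed above. These are matches of letters in windows and do not show binding or use of a start.

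Level 5 on the log2 scale lay close to background, since 76.1% of the probes had a GNP mean below it. The median of every array was near 4.13 and the scale ended at 15.69. On the first principal component of the GNPs, the WT arrays lay on the same side as NdpKO;Ptch+/- replicates 2, 3 and 4 and NdpKO replicate 4. The Ptch+/- arrays lay on the other side, with NdpKO replicates 1, 2 and 3 and NdpKO;Ptch+/- replicate 1. Ptch+/- replicate 3 was the only GNP array with Xist above background (10.02, against 4.10 to 4.12). Ptch1 was 7.80 to 8.23 in NdpKO;Ptch+/-, 7.63 to 7.94 in Ptch+/-, 8.65 to 8.97 in NdpKO and 8.56 to 8.70 in WT GNPs. Its 7.80 was that of NdpKO;Ptch+/- replicate 2, the array with disagreeing labels, and lay below every NdpKO array. Of 14 GNP markers, 10 were measured, and Atoh1, Gli1, Pax6 and Zic5 lay below level 5 in every group.

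Of the 62 genes, 53 reached level 5 in at least 1 group: 30 of the large subunit, 20 of the small subunit and the paralogues Rpl7l1, Rps27l and Rps4l. Rpl14, Rpl17, Rpl6, Rps20, Rps23, Rpsa, Rpl22l1, Rpl39l and Rpl3l lay at background everywhere, so nothing can be said of them, and Rpl5 and Rpl11, which bind Mdm2, are not listed with a symbol here. Most core genes sat near the top of the scale, with 32 at a mean of 13 or more. A probe's level does not rank its gene against another. The median of the core genes was 13.73 in the NdpKO;Ptch+/- MB and 13.73 in the Ptch+/- MB. In the GNPs it was 13.71 ± 0.05 in NdpKO;Ptch+/-, 13.67 ± 0.11 in Ptch+/-, 13.68 ± 0.07 in NdpKO and 13.68 ± 0.04 in WT (SD, n = 4 arrays each), so the groups overlapped. Quantile normalization gives every array nearly the same distribution, and a change of all genes together would not be visible. Within a genotype the core genes had a median SD of 0.098 on the log2 scale. It was 0.093 for 217 other probes with a mean of 13 or more, a level that only 32 of the 50 core genes reached. The widest SD were those of Rps3a1 (0.44) and Rps25 (0.36), and 44 of the 50 stayed under 0.2.

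**Figure D1:**
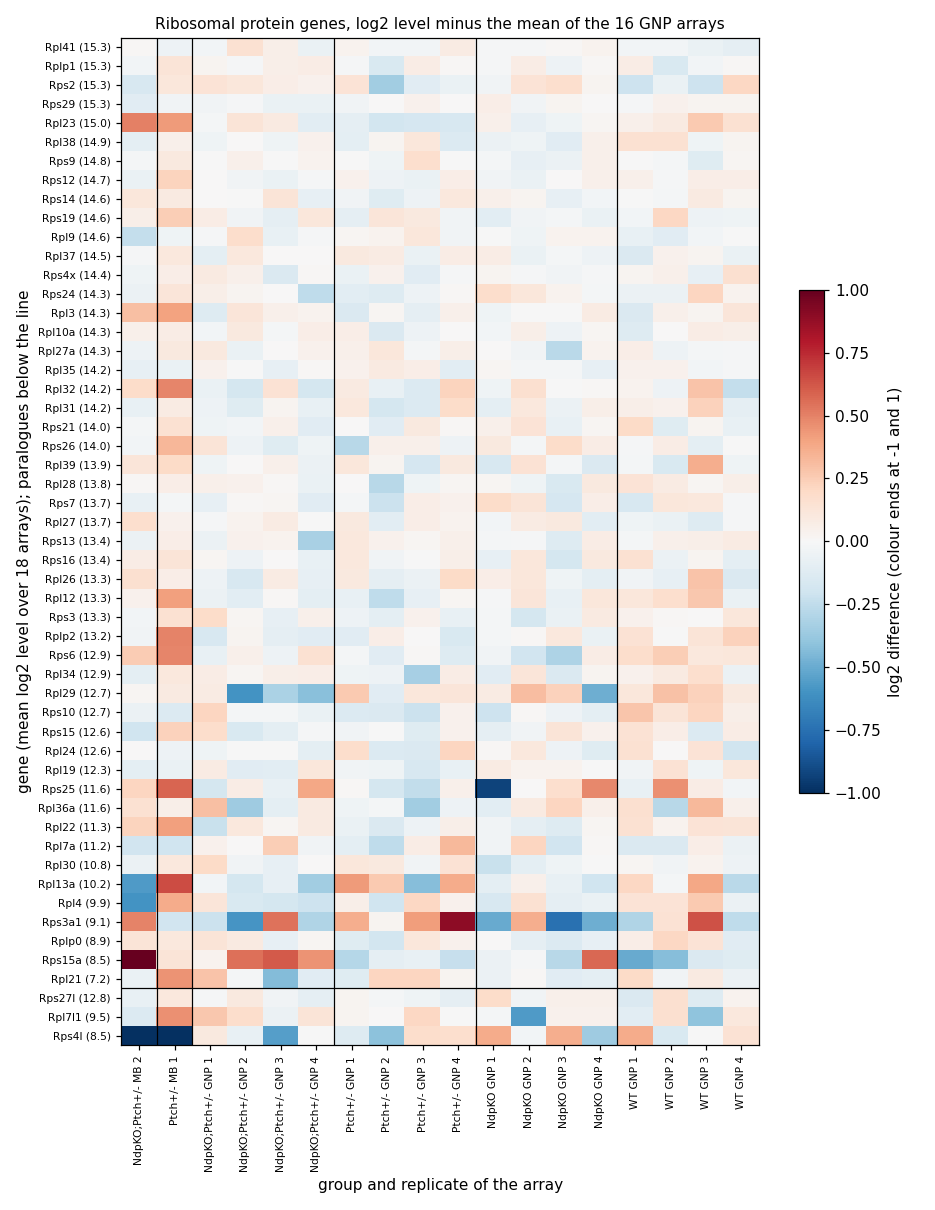
Log2 level of the 53 measured genes (rows, core genes by mean level, paralogues below the line) on 18 arrays (columns), as the difference from the mean of the 16 GNP arrays. Colours end at -1 and 1. Most rows are pale, and Rps4l in the 2 tumours and Rps15a in the NdpKO;Ptch+/- MB reach the ends of the scale.

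The first question was whether loss of 1 Ptch1 allele changed these genes in GNPs. A call was a Benjamini-Hochberg adjusted limma p below 0.05 over all 45281 probes. In Ptch+/- against WT GNPs, 1 of the 62 genes was called, against 1.09% of all probes and 3.44% of those at or above level 5. That gene was Rpl23, a large subunit protein on the face toward the small subunit and one of those that bind Mdm2. Rpl23 (ILMN_2946482) was 14.89, 14.80, 14.81 and 14.82 in Ptch+/- GNPs, against 15.04, 15.07, 15.24 and 15.13 in WT GNPs. Every Ptch+/- array lay below every WT array. The difference was -0.29 ± 0.05 (SE, limma adjusted p = 0.030). It rested on 1 probe: the next brightest Rpl23 probe (ILMN_2742807, mean 13.71 in Ptch+/- and 13.74 in WT GNPs) differed by -0.03 ± 0.09 and a dimmer one (ILMN_1238227) by 0.25 ± 0.17. A further probe (ILMN_2685675) lay at background on every array. With the mean of all Rpl23 probes, this one included, the difference was -0.02 (limma adjusted p = 0.94). Leaving out any of 7 of the 8 arrays (all but WT replicate 1) took the call away, with limma adjusted p between 0.056 and 0.086.

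Markers of cerebellar cell types also differed between these groups. The summed linear level of 12 astrocyte and Bergmann glia markers, 9 of them measured and Fabp7, Glul and S100b at background, was 8540 to 11198 in Ptch+/- and 15347 to 19494 in WT GNPs. That of 14 endothelial markers, 11 of them measured and Abcb1a, Kdr and Tie1 at background, was 4482 to 6691 in Ptch+/- and 6980 to 15250 in WT GNPs. Microglia and leukocyte markers overlapped, at 638 to 1073 in Ptch+/- and 1061 to 1792 in WT GNPs. GNP markers summed higher, at 24613 to 26631 in Ptch+/- and 19978 to 21032 in WT GNPs. Differentiated granule neuron markers overlapped, at 18467 to 22775 in Ptch+/- and 16594 to 19356 in WT GNPs. Limma called 4 of the 14 GNP markers and 2 of the 11 differentiated ones higher. The share called higher was 0.592% of all probes and 1.86% of those at or above level 5. The part of these cells in the Rpl23 result was not tested. In bulk samples fewer cells of a type and less RNA per cell cannot be told apart.

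A pair of small subunit genes also separated Ptch+/- from WT arrays without passing the threshold. Rps10, which lies close to where mRNA enters the ribosome, was 12.56, 12.56, 12.49 and 12.74 in Ptch+/- GNPs, against 12.98, 12.83, 12.92 and 12.76 in WT GNPs. The difference was -0.28 ± 0.07 (limma adjusted p = 0.088). Rps6, the ribosomal target of the S6 kinases, was 12.85, 12.76, 12.88 and 12.75 in Ptch+/- GNPs, against 13.05, 13.12, 12.98 and 12.98 in WT GNPs, a difference of -0.22 ± 0.08 (limma adjusted p = 0.21). In all, 3 of the 50 measured core genes lay wholly lower in Ptch+/- and 0 wholly higher. Of all probes at or above level 5, 10.1% lay wholly lower and 11% wholly higher in this comparison.

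The other core differences between Ptch+/- and WT GNPs were small. The median difference over the 50 was -0.04, against 0.02 over all probes at or above level 5, and in 48 of them the 95% interval stayed within 0.5 of 0. After Rpl23, Rps10 and Rps6, the lowest differences were those of Rpl12, at the base of the stalk (-0.22 ± 0.07), and Rps25 (-0.20 ± 0.24). The highest were those of Rps3a1 (0.37 ± 0.31), Rps15a (0.12 ± 0.17), Rpl30 (0.09 ± 0.06), Rpl27 (0.09 ± 0.05) and Rpl9 (0.09 ± 0.05). None of these passed the threshold. An unadjusted limma p below 0.05 was found for 7 of the 62 genes. It was found for 13.2% of all probes and 29.8% of those at or above level 5.

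Loss of Norrin alone gave 0 calls among the 62 genes in NdpKO against WT GNPs. The share called was 0.307% of all probes and 0.995% of those at or above level 5. An unadjusted limma p below 0.05 was found for 4 genes (10.9% of all probes and 23.6% of those at or above level 5). Rps6 was 12.84, 12.68, 12.56 and 12.95 in NdpKO GNPs, all below the 12.98 to 13.12 of the WT arrays (-0.27 ± 0.08, limma adjusted p = 0.17). Rps10 was 12.50, 12.71, 12.65 and 12.60 in NdpKO GNPs, also below each WT array (-0.26 ± 0.07, limma adjusted p = 0.18). Rps6 and Rps10 thus lay below WT in both single mutants, which share these WT arrays. Rpl22, which binds RNA outside the ribosome as well, lay wholly lower (-0.17 ± 0.07), and Rpl41, the smallest ribosomal protein, wholly higher by 0.06. This made 3 wholly lower and 1 wholly higher, against 4.73% and 5.87% of all probes at or above level 5. The median core difference was -0.04, and 45 of 50 intervals stayed within 0.5 of 0. Differences of Rps3a1 (-0.40 ± 0.31), Rps25 (-0.18 ± 0.24), Rps15a (0.35 ± 0.17), Rps2 (0.14 ± 0.10), Rps26 (0.09 ± 0.07), Rpl27 (0.08 ± 0.05) and Rpl7a (0.07 ± 0.12) were within their error or did not pass the threshold. On the first component NdpKO replicate 4 was the only NdpKO array on the side of WT and of NdpKO;Ptch+/- replicates 2, 3 and 4. Without it the count of calls was 1 in place of 0, namely Rps6 (-0.34 ± 0.07, limma adjusted p = 0.0496). The share of all probes called was then 0.886% in place of 0.307%. Cell type markers differed here as well. Summed astrocyte markers were 8069 to 14145 in NdpKO and 15347 to 19494 in WT GNPs, and microglia and leukocyte markers 535 to 849 in NdpKO and 1061 to 1792 in WT GNPs. Endothelial markers overlapped, at 4322 to 8202 in NdpKO and 6980 to 15250 in WT GNPs, as did GNP markers, at 20802 to 25117 in NdpKO and 19978 to 21032 in WT GNPs. Their part in the Rps6 and Rps10 values was not tested.

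Loss of Norrin on the Ptch+/- background, NdpKO;Ptch+/- against Ptch+/- GNPs, gave 0 calls among the 62 genes. The share called was 0.0155% of all probes and 0.0398% of those at or above level 5. An unadjusted limma p below 0.05 was found for 4 genes (8.67% of all probes and 18.4% of those at or above level 5). The core genes had a median difference of 0.00 and split evenly, 25 higher and 25 lower, and 45 of 50 intervals stayed within 0.5 of 0. Rps15a, a small subunit protein, was the only core gene without overlap, at 8.41, 8.92, 8.99 and 8.83 in NdpKO;Ptch+/- GNPs, against 8.09, 8.28, 8.30 and 8.14 in Ptch+/- GNPs (0.58 ± 0.17, limma adjusted p = 0.34). Of all probes at or above level 5, 4.02% lay wholly higher and 4.81% wholly lower. The other large differences were those of Rps3a1 (-0.57 ± 0.31), Rpl29 (-0.41 ± 0.17), Rpl13a (-0.32 ± 0.18), Rpl21 (-0.16 ± 0.12), Rpl4 (-0.13 ± 0.10), Rps2 (0.19 ± 0.10), Rpl23 (0.17 ± 0.05), Rps25 (0.14 ± 0.24) and Rps10 (0.14 ± 0.07), and none was called. Summed astrocyte markers did not overlap, at 12500 to 16117 in NdpKO;Ptch+/- and 8540 to 11198 in Ptch+/- GNPs. Endothelial markers overlapped, at 5044 to 10787 in NdpKO;Ptch+/- and 4482 to 6691 in Ptch+/- GNPs, as did microglia and GNP markers. The part of these cells in the differences was not tested.

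Against WT GNPs, the NdpKO;Ptch+/- GNPs gave 0 calls (0.0508% of all probes and 0.167% of those at or above level 5). An unadjusted limma p below 0.05 was found there for 6 genes (6.95% and 13.2% of the same probes). Against NdpKO GNPs they also gave 0 calls (0.00442% and 0.0159%), with 1 gene at such a p (5.6% and 8.85%). Rps15a again lay wholly above WT, where it was 7.87, 7.95, 8.23 and 8.26 (0.71 ± 0.17, limma adjusted p = 0.26), and 3.07% of probes at or above level 5 did so. Against NdpKO GNPs, which were at 8.31, 8.36, 8.10 and 8.95, Rps15a overlapped (0.36 ± 0.17). Rplp2, Rpl13a and Rpl4 were among the lowest against WT (-0.21 ± 0.06, -0.23 ± 0.18 and -0.22 ± 0.10), and Rps2, Rpl7a and Rpl27 among the highest (0.16 ± 0.10, 0.14 ± 0.12 and 0.09 ± 0.05). Against NdpKO GNPs the lowest after Rpl29 (-0.35 ± 0.17) was Rps24 (-0.12 ± 0.08), and the highest after Rps15a were Rps3a1 (0.20 ± 0.31) and Rps6 (0.13 ± 0.08).

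Rpl29, a large subunit protein, was 12.81, 12.13, 12.41 and 12.31 in NdpKO;Ptch+/- GNPs, against 12.85, 13.02, 12.96 and 12.83 in WT GNPs (-0.50 ± 0.17, limma adjusted p = 0.52). It lay wholly below WT, as did 2.9% of probes at or above level 5. In NdpKO GNPs it was 12.81, 13.04, 12.96 and 12.24. NdpKO replicate 4 was thus the lowest NdpKO array in Rpl29 and the highest in Rps15a, and NdpKO;Ptch+/- replicate 1 was the highest array of its group in Rpl29 and the lowest in Rps15a. A second Rpl29 probe (ILMN_2730005) gave 11.02, 10.03, 9.84 and 10.01 in NdpKO;Ptch+/- GNPs and 10.77, 10.76, 10.72 and 10.06 in NdpKO GNPs, with the same arrays apart. Without these 2 arrays, left out because of their place on the first component, Rps15a differed by 0.71 and Rpl29 by -0.55 between NdpKO;Ptch+/- and Ptch+/- GNPs, and both were called (limma adjusted p = 0.0063 and 0.015), with 2.04% of all probes called in place of 0.0155%. The groups then differ by a choice made on expression values, so these calls describe the arrays that remained.

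**Figure D2:**
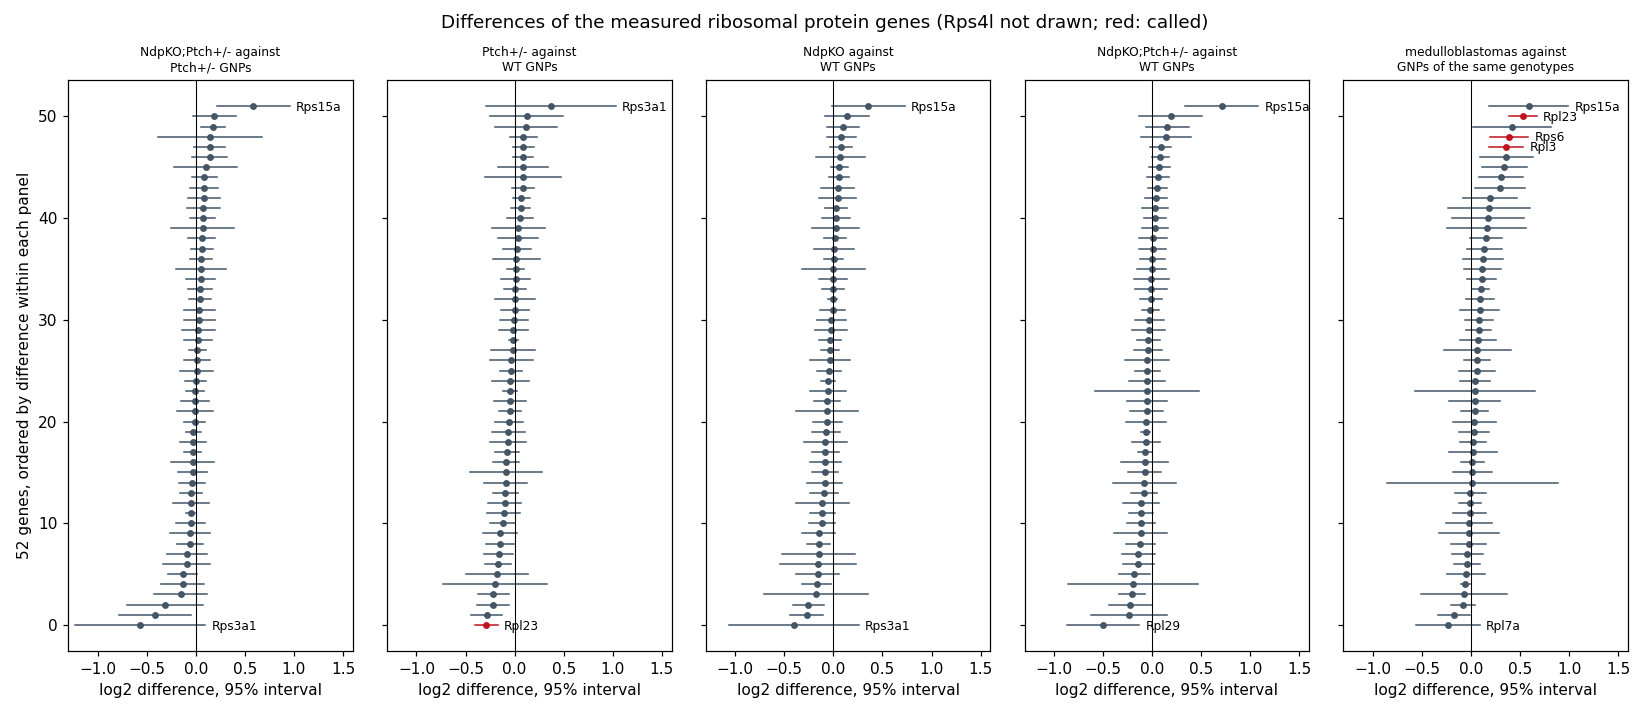
Log2 difference with its 95% interval for the 52 measured genes other than Rps4l, ordered by size within each of 5 comparisons (limma). Red marks a call, which only Rpl23 has among the 4 GNP panels, and Rpl23, Rpl3 and Rps6 in the tumour panel.

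Whether Norrin loss acted differently on the 2 Ptch backgrounds was read from the interaction, the NdpKO;Ptch+/- minus Ptch+/- difference less the NdpKO minus WT difference. No member was called (0 of 62, against 0.495% of all probes and 1.59% of those at or above level 5). An unadjusted limma p below 0.05 was found for 4 genes (13.3% of all probes and 30.7% of those at or above level 5). The highest values were those of Rps10 (0.40 ± 0.10, limma adjusted p = 0.11), Rps6 (0.35 ± 0.11, limma adjusted p = 0.15) and Rpl23 (0.33 ± 0.08, limma adjusted p = 0.081), the genes that were lowest in Ptch+/- against WT, from which this value is in part computed. Their means in NdpKO;Ptch+/- GNPs were 12.73 for Rps10, 12.89 for Rps6 and 15.01 for Rpl23, each between those of Ptch+/- (12.59, 12.81 and 14.83) and WT GNPs (12.87, 13.03 and 15.12). The lowest values were those of Rpl29 (-0.26 ± 0.24), Rps3a1 (-0.16 ± 0.43), Rpl13a (-0.16 ± 0.25), Rpl32 (-0.11 ± 0.16) and Rpl26 (-0.09 ± 0.13). With the trend and robust options of limma, Rpl23 and Rps10 were called in the interaction (limma adjusted p = 0.026 and 0.045). The summed astrocyte marker level was 12500 to 16117 in NdpKO;Ptch+/- and 8069 to 14145 in NdpKO GNPs. In the interaction 4 of the 14 GNP markers and 1 of 11 differentiated granule neuron markers were called lower. The share called lower was 0.274% of all probes and 0.9% of those at or above level 5. The part of these cells in the values was not tested.

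The tumours were set against the 8 GNP arrays of their genotypes. By the study's methods the tumours were dissected tissue, whereas the GNPs were purified cells. Preparation and tumour status therefore cannot be told apart, and neither can age if the donors were symptomatic mice. Here 4 of the 62 genes were called, against 14.7% of all probes, 39.7% of those at or above level 5 and 21.2% of other probes with a mean of 13 or more. Rps4l fell, and Rpl23, Rpl3 and Rps6 rose. The core genes had a median difference of 0.06, with 34 of 50 intervals within 0.5 of 0. Of the 50, 6 lay above all 8 GNP arrays in both tumours (Rpl12, Rpl22, Rpl23, Rpl3, Rpl39 and Rps6) and 0 lay below, against 23.9% and 25.6% of all probes at or above level 5.

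Rps4l (ILMN_2737090), the transcribed pseudogene related to X-linked Rps4x, was 4.18 in the NdpKO;Ptch+/- MB and 4.13 in the Ptch+/- MB. It was 9.10, 8.93, 8.45 and 9.00 in NdpKO;Ptch+/-, 8.87, 8.59, 9.17 and 9.17 in Ptch+/-, 9.37, 8.97, 9.36 and 8.65 in NdpKO and 9.37, 8.85, 8.99 and 9.14 in WT GNPs. The probe was thus at background in both tumours and clearly above it on all 16 GNP arrays, whose genotypes overlapped. The measured difference was -4.75 ± 0.20 (limma adjusted p = 2.9e-06), and counted against level 5 the tumours were at least 15-fold lower. Rps4x itself was 14.33 in the NdpKO;Ptch+/- MB and 14.44 in the Ptch+/- MB, within the 14.23 to 14.46 of the 8 GNP arrays (0.03 ± 0.07, limma adjusted p = 0.86). Its 95% interval ran from -0.13 to 0.18. Under 19 alternatives the difference of Rps4l stayed between -4.84 and -4.69. All of them used this 1 probe and 1 or both of these tumours, so they do not address other tumours or preparation.

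The other measured paralogues were not called in any comparison. Rps27l, a p53 target, was 12.69 in the NdpKO;Ptch+/- MB and 12.86 in the Ptch+/- MB (0.04 ± 0.06), and 12.61 to 12.94 in the GNPs. Rpl7l1, which acts in ribosome assembly, was 9.35 and 9.94 in the same tumours (0.07 ± 0.15) and 8.92 to 9.76 in the GNPs.

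Rpl23 was 15.48 in the NdpKO;Ptch+/- MB and 15.41 in the Ptch+/- MB, against 14.97, 15.11, 15.07 and 14.87 in NdpKO;Ptch+/- and 14.80 to 14.89 in Ptch+/- GNPs. Both tumours also lay above the highest WT array, 15.24. The difference was 0.53 ± 0.06 (limma adjusted p = 7.6e-04), and the second probe gave 0.14 ± 0.10 and the dimmer one -0.10 ± 0.20. With the mean of all Rpl23 probes, the probe at background included, it was 0.14 (limma adjusted p = 0.20).

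Rpl3, which lies at the centre where peptide bonds form, was 14.54 in the NdpKO;Ptch+/- MB and 14.65 in the Ptch+/- MB, against 14.12, 14.36, 14.29 and 14.28 in NdpKO;Ptch+/- and 14.10, 14.27, 14.15 and 14.29 in Ptch+/- GNPs (0.36 ± 0.07, limma adjusted p = 0.015). Rps6 was 13.12 and 13.36 in the same tumours, against 12.80, 12.93, 12.83 and 13.02 in NdpKO;Ptch+/- and 12.75 to 12.88 in Ptch+/- GNPs (0.39 ± 0.08, limma adjusted p = 0.017). The NdpKO;Ptch+/- MB was at 13.124 in Rps6, only just above the highest WT GNP array at 13.119. Rpl3 and Rps6 lost their calls without the Ptch+/- MB (0.28, limma adjusted p = 0.18, and 0.23, limma adjusted p = 0.21).

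The largest core difference, that of Rps15a (0.59 ± 0.17, limma adjusted p = 0.063), and those of Rps25 (0.42 ± 0.17), Rpl22 (0.34, limma adjusted p = 0.055), Rpl12 (0.31, limma adjusted p = 0.080) and Rpl39 (0.15, limma adjusted p = 0.21) did not pass. The lowest were those of Rpl7a (-0.23 ± 0.14), Rpl9 (-0.17 ± 0.07), Rpl35 (-0.08 ± 0.05), Rpl4 (-0.07 ± 0.19) and Rps29 (-0.06 ± 0.02). Rplp0, the base of the acidic stalk, was 9.06 in the NdpKO;Ptch+/- MB and 9.03 in the Ptch+/- MB, against 8.75 to 9.06 in the 8 GNP arrays (0.12 ± 0.08). The stalk proteins Rplp1 (0.04 ± 0.06) and Rplp2 (0.30 ± 0.11), Rpl10a (0.06 ± 0.06), Rpl38, which in mice is needed for translation of Hox mRNAs (-0.01 ± 0.07), and Rps19, the gene most often mutated in human Diamond-Blackfan anaemia (0.13 ± 0.08), were not called, and among the GNP comparisons the largest of their differences was the -0.21 ± 0.06 of Rplp2 in NdpKO;Ptch+/- against WT (limma adjusted p = 0.42).

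Markers of other cell types also differed between the tumours and the GNPs. The summed level of 12 microglia and leukocyte markers, 9 of them measured and Ctss, P2ry12 and Ptprc at background, was 4279 in the NdpKO;Ptch+/- MB and 8824 in the Ptch+/- MB, against 637 to 1073 in the 8 GNP arrays. That of 6 erythroid markers, 3 of them measured and Alas2, Hbb-b2 and Slc4a1 at background, was 2515 and 2789 in the same tumours, against 13613 to 38968 in the 8 GNP arrays. Endothelial markers summed to 1809 and 1465, against 4482 to 10787, and 11 differentiated granule neuron markers, 8 of them measured, to 11964 and 11264, against 17468 to 22775. Astrocyte markers summed to 17219 and 30350, against 8540 to 16117, and GNP markers to 31084 and 36792, against 20209 to 26631. Single markers did not all follow these sums. Among measured ones, limma called 4 of 9 astrocyte markers higher and 2 lower, and 3 of 10 GNP markers higher and 1 lower. Differentiated granule neuron markers were called lower in 6 of 8 and higher in 1. Calls went 1 way for microglia and leukocyte (9 of 9 higher), erythroid (3 of 3 lower) and endothelial markers (5 of 11 lower). Shares over all probes at or above level 5 were 20% higher and 19.8% lower. The part of these cells in the tumour results, Rps4l among them, was not tested.

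**Figure D3:**
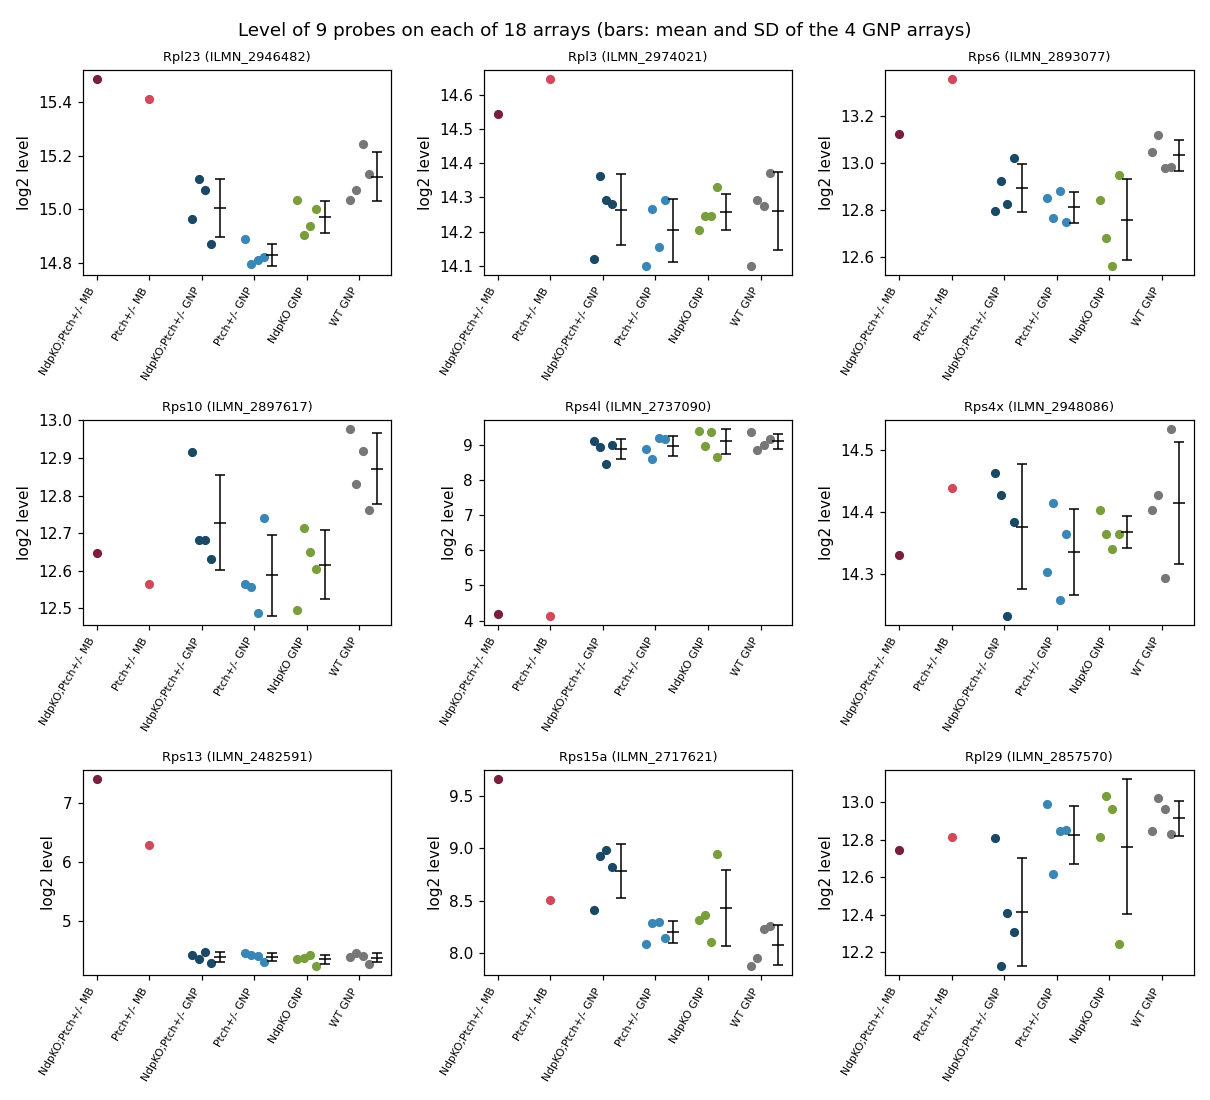
Log2 level of 9 probes on each of 18 arrays, with 1 panel per probe and its own axis, tumours at the left and WT GNPs at the right. Bars give the mean and SD of the 4 GNP arrays of a genotype. Rps4l lies at 4.13 to 4.18 in the tumours and 8.45 to 9.37 in the GNPs, and the second Rps13 probe shows the opposite order.

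Some genes gave another answer at a dimmer probe. Rps13, a small subunit protein, was 13.38 in the NdpKO;Ptch+/- MB and 13.51 in the Ptch+/- MB at its brightest probe, a difference of 0.01 ± 0.09 from the GNPs. Its second probe (ILMN_2482591) was 7.41 in the NdpKO;Ptch+/- MB and 6.29 in the Ptch+/- MB, against 4.22 to 4.47 on all 16 GNP arrays, at least 3.61-fold higher in the tumours counted against level 5 (2.47 ± 0.21, limma adjusted p = 1.6e-04). A second Rpl27a probe (ILMN_1227653) was 12.76 and 12.88 in the same tumours, against 13.10 to 13.43 in the 8 GNP arrays (-0.45 ± 0.08, limma adjusted p = 0.0081), while the brightest Rpl27a probe differed by -0.01. A second Rps19 probe (ILMN_2754355) was called with 5.10 and 4.50 in the same tumours, close to background. What transcript each of these probes meets was not examined, since their sequences were not used here.

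The 2 tumours, with 1 array each and so no test, were set against each other. Of the 50 measured core genes, 38 were lower in the NdpKO;Ptch+/- MB than in the Ptch+/- MB, against 50.1% of all probes at or above level 5 and 47.5% of other probes with a mean of 13 or more. The median difference was -0.12, against 0.00 over probes at or above level 5. Each tumour was then placed against the GNPs of its own genotype. The NdpKO;Ptch+/- MB lay above the range of NdpKO;Ptch+/- GNPs in 13 core genes and below it in 11, and the Ptch+/- MB lay above the range of Ptch+/- GNPs in 28 and below it in 3. Among all probes at or above level 5, 35.9% lay above and 39.1% below for the NdpKO;Ptch+/- MB, and 38.9% above and 42.2% below for the Ptch+/- MB. The median core difference from the GNPs was 0.00 for the NdpKO;Ptch+/- MB and 0.14 for the Ptch+/- MB.

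Only 2 core genes were at least 1 apart on the log2 scale, where 12.7% of probes at or above level 5 were. Rpl13a, a large subunit protein that is also part of an interferon-gamma-regulated translation silencing complex in human myeloid cells, was 9.58 in the NdpKO;Ptch+/- MB and 10.80 in the Ptch+/- MB. Its GNP arrays were at 10.12, 9.97, 10.07 and 9.80 in NdpKO;Ptch+/- and 10.57, 10.41, 9.72 and 10.52 in Ptch+/-. Rps15a was 9.66 in the NdpKO;Ptch+/- MB and 8.51 in the Ptch+/- MB, each above all GNP arrays of its genotype.

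In 5 core genes the NdpKO;Ptch+/- MB lay below and the Ptch+/- MB above the GNPs of its genotype (Rpl13a, Rpl34, Rpl4, Rplp1 and Rps15), and the paralogue Rpl7l1 did the same. Opposite positions of this kind, in either order, were found for 7.52% of probes at or above level 5. Rpl4, which lines the exit tunnel, was 9.27 in the NdpKO;Ptch+/- MB and 10.24 in the Ptch+/- MB, and its GNPs were 9.66 to 9.99 in NdpKO;Ptch+/- and 9.67 to 10.08 in Ptch+/-. Rps15, close to the decoding site, was 12.43 and 12.86 in the same tumours. Dimmer probes of Rps24 (6.87 and 8.26), Rpl31 (8.95 and 10.32), Rpl27a (8.67 and 9.64) and Rpl23 (7.85 and 8.80) were also below their GNPs in the NdpKO;Ptch+/- MB and above them in the Ptch+/- MB. Second probes of Rps2 (ILMN_2946616, 14.20 and 14.66) and Rps9 (ILMN_2643092, 13.37 and 13.78), both bright, had the same positions. The brightest probes of these genes did not lie on opposite sides in this way. Summed microglial and leukocyte markers differed between the tumours too (4279 and 8824), and their part in these values was not tested.

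**Figure D4:**
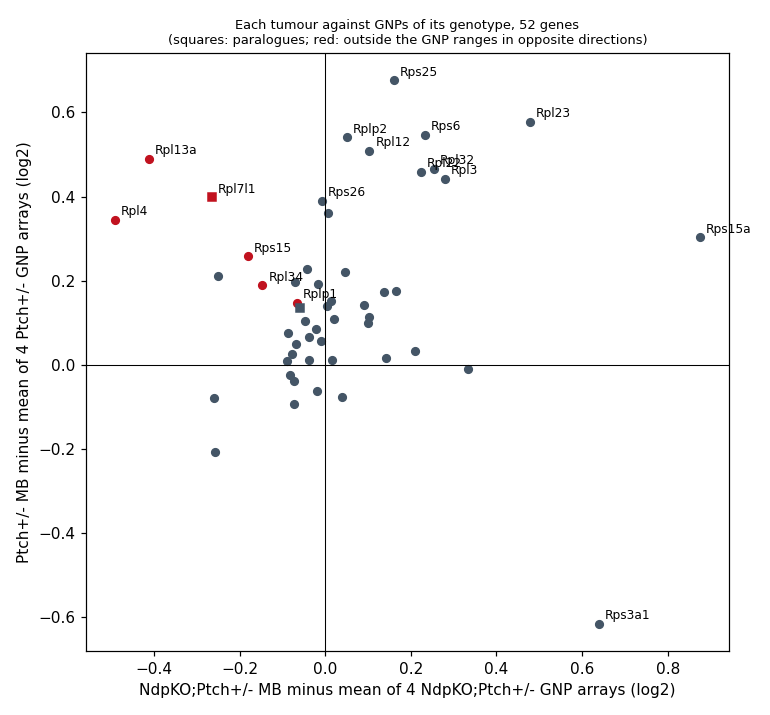
Each tumour minus the mean of the 4 GNP arrays of its genotype (log2), NdpKO;Ptch+/- across and Ptch+/- up, for the 52 measured genes other than Rps4l. Red marks the 6 genes outside the GNP ranges in opposite directions, at the upper left, and Rpl23, Rpl3 and Rps6 lie in the upper right.

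Other genes of the translation machinery were counted from lists. Of 36 initiation factor genes, 18 elongation factor and other TOP genes and 49 ribosome biogenesis genes on the arrays, 0 were called by limma in any of the 6 GNP comparisons. At an unadjusted p below 0.05 there were 1 to 5 initiation factor genes, 0 to 2 elongation factor and other TOP genes and 2 to 13 biogenesis genes per comparison. The 13 biogenesis genes were those of Ptch+/- against WT GNPs, all among the 39 measured, and 29.8% of probes at or above level 5 had such a p in that comparison, near the share of the list. Of 14 growth control genes, only Mdm2, the ubiquitin ligase bound by free ribosomal proteins, was called, lower in Ptch+/- than in WT GNPs (-0.70 ± 0.12, limma adjusted p = 0.020). Of 76 mitochondrial ribosomal protein genes, 70 of them measured, Mrpl34 (0.46 ± 0.09) and Mrpl36 (0.37 ± 0.08) were called higher in Ptch+/- against WT GNPs. Of all probes at or above level 5, 3.44% were called in that comparison, near the share of this list.

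In the tumours the mitochondrial ribosomal proteins, which form the separate ribosome of that organelle, were called lower in 15 of 76 and higher in 0, with a median of -0.17 among the 70 measured ones. All 15 were measured, and the share lower was near that of all probes at or above level 5, of which 19.8% were called lower and 20% higher (6.06% and 8.61% of all probes). Mrpl46 (-1.01 ± 0.09), Mrpl54 (-0.67 ± 0.09), Mrps11 (-0.65 ± 0.09) and Mrps7 (-0.61 ± 0.06) were among them. Ribosome biogenesis genes were called higher in 8 and lower in 3 of 49, 39 of them measured, in both directions together a smaller share of the measured ones than the 39.7% of all probes at or above level 5. Polr1b (3.03 ± 0.22) and Polr1a (1.15 ± 0.19), subunits of RNA polymerase I, and Nmd3 (2.59 ± 0.29), the export adaptor of the large subunit, rose, while Tsr1 (-1.23 ± 0.23), an assembly factor of the small subunit, and Polr1d (-0.95 ± 0.06) fell. Initiation factors had 2 higher and 2 lower of 36, with Eif3c at -0.93 ± 0.15. Among the 29 measured, 1 was called higher and 2 lower. Elongation factor and other TOP genes had 1 higher and 3 lower of 18, with Eef1a2, the elongation factor of mature neurons and muscle, at -2.06 ± 0.26. These calls were all among the 16 measured. In both lists the share of measured genes called was below the 39.7% of all probes at or above level 5. Growth control genes had 2 higher and 1 lower of 14. These calls all lay among the 8 measured genes, a share near the 39.7% of all probes at or above level 5. Tsc1 (1.87 ± 0.20) and Larp1, which binds TOP mRNAs (1.15 ± 0.17), rose and Mtor fell (-1.84 ± 0.32). Each of these differences had a limma adjusted p below 0.05.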

How the data were processed

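RNA of 16 GNP samples and 2 medulloblastomas was hybridised to Illumina MouseWG-6 v2 arrays. The authors deposited log2 values, which they had background-corrected and quantile-normalized with neqc in limma. No further normalization was applied, and 0 columns of the table lacked a sample. The detection calls and chips of the arrays are not given in the sources used here, and the number of arrays limits precision.

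Gene names came from the platform annotation: 34885 probes had 1 symbol, 18 several and 10378 none. Level 5 as a limit near background was chosen after the data were seen, and a fold against a group below it is a lower bound. The members and lists were chosen with earlier results of these data known.

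Genotype means of the 16 GNP arrays were estimated in 1 linear model, and tissue (2 tumours against 8 GNP arrays) with genotype as a covariate in another, both in limma 3.58.1 (R 4.3.3) with eBayes. Tests were two-sided with Benjamini-Hochberg adjustment over 45281 probes. Differences are log2 ± SE. Genes were named by rule: every member called, all paralogues with their parents, the 5 highest and 5 lowest core differences of each comparison, selected reference genes, and called list members with the largest differences. Members at a dimmer probe, those outside ranges and those described between tumours were named after their values were seen. The fits were also run on simulated data with independent noise for each probe. Such data lack the differences between arrays seen on the first component, so they do not test the fits for those. Alternatives covered the choice of probe, dim probes, centring, variance options, array weights, the array with disagreeing labels and single arrays.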

Additional observations from a re-analysis of the deposited data

Results flagged for a closer look

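In 116 groups of 4 GNP arrays (28 named genes and the core median, in 4 genotypes), 4 held an array far from the others, and chance alone flags about 1 group in 20. Rpl4 was 9.99 in NdpKO;Ptch+/- replicate 1, against 9.66 to 9.71 in the other arrays of that genotype. Rpl7l1 was 9.69 in Ptch+/- replicate 3, against 9.48 to 9.52, and 8.92 in NdpKO replicate 2, against 9.47 to 9.53. Rps19 was 14.78 in WT replicate 2, against 14.52 to 14.54.

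In 6 genes the tumours lay outside the GNP ranges of their genotypes in opposite directions, a difference that was not tested. The NdpKO;Ptch+/- MB and the Ptch+/- MB differed from the mean of their GNPs by -0.41 and 0.49 in Rpl13a and by -0.49 and 0.35 in Rpl4. In Rpl7l1 the same differences were -0.27 and 0.40, and in Rps15 -0.18 and 0.26. They were -0.15 and 0.19 in Rpl34, and -0.067 and 0.15 in Rplp1.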

How the results depend on the processing

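The counts of called ribosomal protein genes were small and several moved. In the tumours 4 were called, against 7 when any probe of a gene could be called, 7 with the mean of all probes, 7 with only probes of mean 5 or more, 9 with the trend and robust options, 2 with array weights and 7 without the NdpKO;Ptch+/- MB. Centring each array on its probes of 7 or more gave 19, but this moved the median of all probes by 0.02 and called 70.7% of them, and 7 of the 19 genes lay at background in every group. In Ptch+/- against WT GNPs 1 was called, against 2 with only probes of mean 5 or more, 2 with trend and robust, 0 with the mean of all probes and 0 to 1 when single arrays were left out. Numbers do not pair the arrays (24 same-numbered pairs, median correlation -0.04, 4 of 16 arrays best with their own number), and with replicate number as a block the count was 0 (Rpl23 limma adjusted p = 0.073). The interaction gave 0, against 1 with only probes of mean 5 or more, 2 with trend and robust and 0 to 1 without single arrays (Rps6 without NdpKO replicate 4, Rpl22 without NdpKO;Ptch+/- replicate 1), and NdpKO against WT gave 0, with 0 to 1 without single arrays. Leaving out NdpKO replicate 4 and NdpKO;Ptch+/- replicate 1 together, chosen after seeing the data, gave 2 in NdpKO;Ptch+/- against Ptch+/- (2.04% of all probes called), 2 in Ptch+/- against WT (3.1%), 1 in NdpKO against WT (2.36%), 2 in NdpKO;Ptch+/- against NdpKO (1.45%), 2 in NdpKO;Ptch+/- against WT (0.168%) and 4 in the interaction (5.69%), and in Ptch+/- against WT, NdpKO against WT and the interaction the counts of the 62 genes were near these shares. The cause of these changes was not tested. Rpl3 and Rps6 also lost their tumour calls with array weights (limma adjusted p = 0.068 and 0.055). Leaving out the array with disagreeing labels, or counting it as NdpKO, and every setting not named kept each count within 1.5 times, and no direction of a called gene turned. With the mean of all probes per gene the core median was 12.54 in the NdpKO;Ptch+/- MB, 12.56 in the Ptch+/- MB, 12.62 in NdpKO;Ptch+/-, 12.57 in Ptch+/-, 12.57 in NdpKO and 12.66 in WT GNPs. With 1 array per tumour, and 4 per genotype, small differences could not be resolved.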
